A study of Mus musculus with 3 samples.

Results

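The collagen, laminin and integrin genes were taken as all genes whose official mouse symbol starts with Col, Lama, Lamb, Lamc, Itga or Itgb directly followed by a digit. Of 79 such genes named in RefSeq, 36 (45.6%) carried at least 1 CELF1 CLIP cluster, against 36.6% of the 21900 protein-coding genes named there. These 36 genes held 254 of the 72222 clusters in the 3 libraries. A cluster is a stretch of transcript where RNA fragments crosslinked to CELF1 were denser than a random model allowed. The 36 bound genes comprised 18 collagens, 5 laminins, 12 integrins and Itgb3bp, an integrin-binding protein that the symbol rule also took. CELF1 was crosslinked to RNA with UV light and immunoprecipitated with a monoclonal antibody (3B1) from heart ventricle and from muscle of 16-week-old C57/BL6 mice, and from cultured C2C12 myoblasts, a mouse muscle precursor line. The labels gave no genotype or treatment for any group and did not name the muscle further, and the number of animals per library was not given in the sources used here. Each group had 1 library, so the differences below have no replicate check, and the exact 95% intervals cover counting error only. They also treat clusters as separate counts, although clusters of 1 gene come from the same transcripts.

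CELF1 is an RNA-binding protein that recognizes RNA rich in UGU. Bound in introns near alternative exons it is known to act on splicing, and bound in 3′ UTRs it is known to shorten the life of mRNAs. The genes studied here encode the scaffold around muscle cells and its receptors. Laminins, heterotrimers of an alpha, a beta and a gamma chain, and type IV collagens form the basement membrane, fibrillar and type VI collagens form the interstitial matrix, and integrins, dimers of an alpha and a beta chain, link both to the cytoskeleton.

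The sequences that the clusters of these genes covered are shown for sites that recurred between libraries and for a few sites of single libraries, with each UGU in capitals. They were read 5′ to 3′ on the transcript strand from the mm9 genome and written as RNA. In 3′ UTRs, the stretch covered in every library named was cut to at most 30 nt around the most UGU.
Col4a1 3′ UTR, heart, muscle and myoblasts, chr8:11199588-11199617 (-): uuggccucUGUuugcugaaggagaaggaca
Col4a1 3′ UTR, heart and myoblasts, chr8:11199678-11199707 (-): ccuagaauuauauccUGUGUaccucacUGU
Col6a1 3′ UTR, heart, muscle and myoblasts, chr10:76171741-76171770 (-): caaaggugcuaucuaucUGUaagggcucuc
Col4a2 3′ UTR, heart and muscle, chr8:11448790-11448819 (+): UGUcucUGUGUcccUGUgcuuccccuggca
Lamc1 3′ UTR, heart and muscle, chr1:155066966-155066995 (-): ucugccuUGUGUuugcagcaccuucacUGU
Itgb1 3′ UTR, heart and muscle, chr8:131256571-131256600 (+): UGUGUgccauUGUgaguuacuugauccUGU
Itgb6 3′ UTR, heart and muscle, chr2:60436580-60436609 (-): UGUuUGUgcUGUuuuUGUGUuauugcugaa
In introns and coding exons, whole clusters or whole shared stretches are shown, named by the part of the cluster midpoint. The Lamb2 exon 21 cluster ran into the next intron, and the Lamb2 intron 28 cluster started at the end of exon 28. The Lama2 intron 37, Lamb2 exon 21 and Itgb1 exon 12 clusters are shown as those with the most UGU in the gene with most intronic clusters and in the pair of genes with most coding clusters. The Itga7 intron 1 stretch was the only one outside 3′ UTRs covered in all 3 libraries. The pair in Itga7 intron 5 and the Lamb2 intron 28 cluster were chosen after their positions were seen, and the Lama2 intron 12 cluster is shown as 1 of the few that hold no UGU.
Itga7 intron 1, heart, muscle and myoblasts, chr10:128374720-128374755 (+): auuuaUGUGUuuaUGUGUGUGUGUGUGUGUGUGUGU
Itga7 intron 5, heart cluster nearer exon 5, chr10:128378667-128378773 (+): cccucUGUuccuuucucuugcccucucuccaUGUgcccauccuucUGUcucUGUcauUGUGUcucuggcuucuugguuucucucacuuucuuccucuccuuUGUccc
Itga7 intron 5, heart cluster nearer exon 6, chr10:128378799-128378871 (+): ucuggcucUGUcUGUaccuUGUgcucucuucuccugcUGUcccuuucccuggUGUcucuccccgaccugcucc
Lama2 intron 37, heart, chr10:26837986-26838097 (-): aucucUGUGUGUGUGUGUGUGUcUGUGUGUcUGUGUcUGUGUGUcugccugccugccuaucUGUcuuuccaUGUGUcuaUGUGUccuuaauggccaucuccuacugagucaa
Lama2 intron 12, heart, without UGU, chr10:27031863-27031897 (-): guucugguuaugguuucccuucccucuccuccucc
Lamb2 intron 28, heart, chr9:108391198-108391316 (+): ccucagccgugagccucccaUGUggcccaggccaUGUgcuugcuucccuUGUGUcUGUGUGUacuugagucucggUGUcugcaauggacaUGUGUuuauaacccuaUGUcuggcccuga
Lamb2 exon 21, heart, chr9:108388867-108388922 (+): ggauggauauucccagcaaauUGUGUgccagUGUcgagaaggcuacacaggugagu
Itgb1 exon 12, muscle, chr8:131246398-131246453 (+): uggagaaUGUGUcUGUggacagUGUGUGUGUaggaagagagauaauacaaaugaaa

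The libraries held 42263 heart, 24844 muscle and 5115 myoblast clusters. Summed clusters over cardiomyocyte and skeletal fibre markers followed the tissue labels, but single genes made up most of each sum. The 8 cardiomyocyte markers had 370 heart, 5 muscle and 1 myoblast clusters, and the 8 skeletal fibre markers had 9, 91 and 0 in the same order. Ryr2 held 252 of the 370 and Corin 52, whereas Tnni3 had 1 and Nppa 0 in heart. Ryr1 held 49 of the 91. Of the 8 myoblast markers, Hmga2 had 26 and Ccnd1 11 clusters in the myoblast library, whereas Myf5, Myog, Pax7 and Cdh15 had none in any library. Among markers of other cells, 8 endothelial markers had 75 heart, 23 muscle and 0 myoblast clusters. The 8 fibroblast markers other than collagens had 14, 5 and 1, which per 10000 clusters of the library was 3.31, 2.01 and 1.96, and the 7 smooth muscle and pericyte markers had 31, 13 and 4, or 7.34, 5.23 and 7.82 per 10000. The myoblast levels of these last 2 lists rested on 1 and 4 clusters, too few to compare with the tissues. The 6 leukocyte markers had 2, 1 and 0 clusters, and the 5 Schwann cell markers 0, 2 and 1. Dcn, Lum and Dpt, which define fibroblasts, had 3, 0 and 0 clusters in heart, 2, 0 and 0 in muscle, and none in myoblasts. Fewer cells of a type and less RNA per cell cannot be told apart in such bulk samples, and the part of cell makeup or of RNA level in the counts below was not tested.

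The collagen, laminin and integrin genes held 163 heart, 61 muscle and 30 myoblast clusters. This was 0.386% of the heart library (0.329 to 0.45%), 0.246% of the muscle library (0.188 to 0.315%) and 0.587% of the myoblast library (0.396 to 0.836%). Their share was thus 1.57-fold higher in heart than in muscle (1.16 to 2.14) and 0.419 times as high in muscle as in myoblasts (0.266 to 0.671), whereas the ratio of heart to myoblasts was 0.658 with an interval that included 1 (0.443 to 1.01). The lead of heart over muscle rested in part on Lama2, without which heart had 0.3% (0.251 to 0.357%). The muscle share of 0.246% still included 7 Lama2 clusters, and the ratio with Lama2 left out of both libraries was not computed.

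In heart, 28 of the 36 genes (77.8%) had a cluster, against 85.3% of all genes with a cluster in any library. In muscle 19 of 36 (52.8%) had one, against 66.5%, and in myoblasts 14 of 36 (38.9%), against 34.3%. The exact intervals, 60.8 to 89.9% in heart, 35.5 to 69.6% in muscle and 23.1 to 56.5% in myoblasts, all contained the background share. A bound gene had a median of 4 clusters in the heart library, 2 in the muscle library and 2 in the myoblast library, against 3, 3 and 1 over all bound genes. The clusters were unevenly divided, and Lama2 alone held 36 of the 163 in heart and Itgb6 14 of the 61 in muscle.

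**Figure D1:**
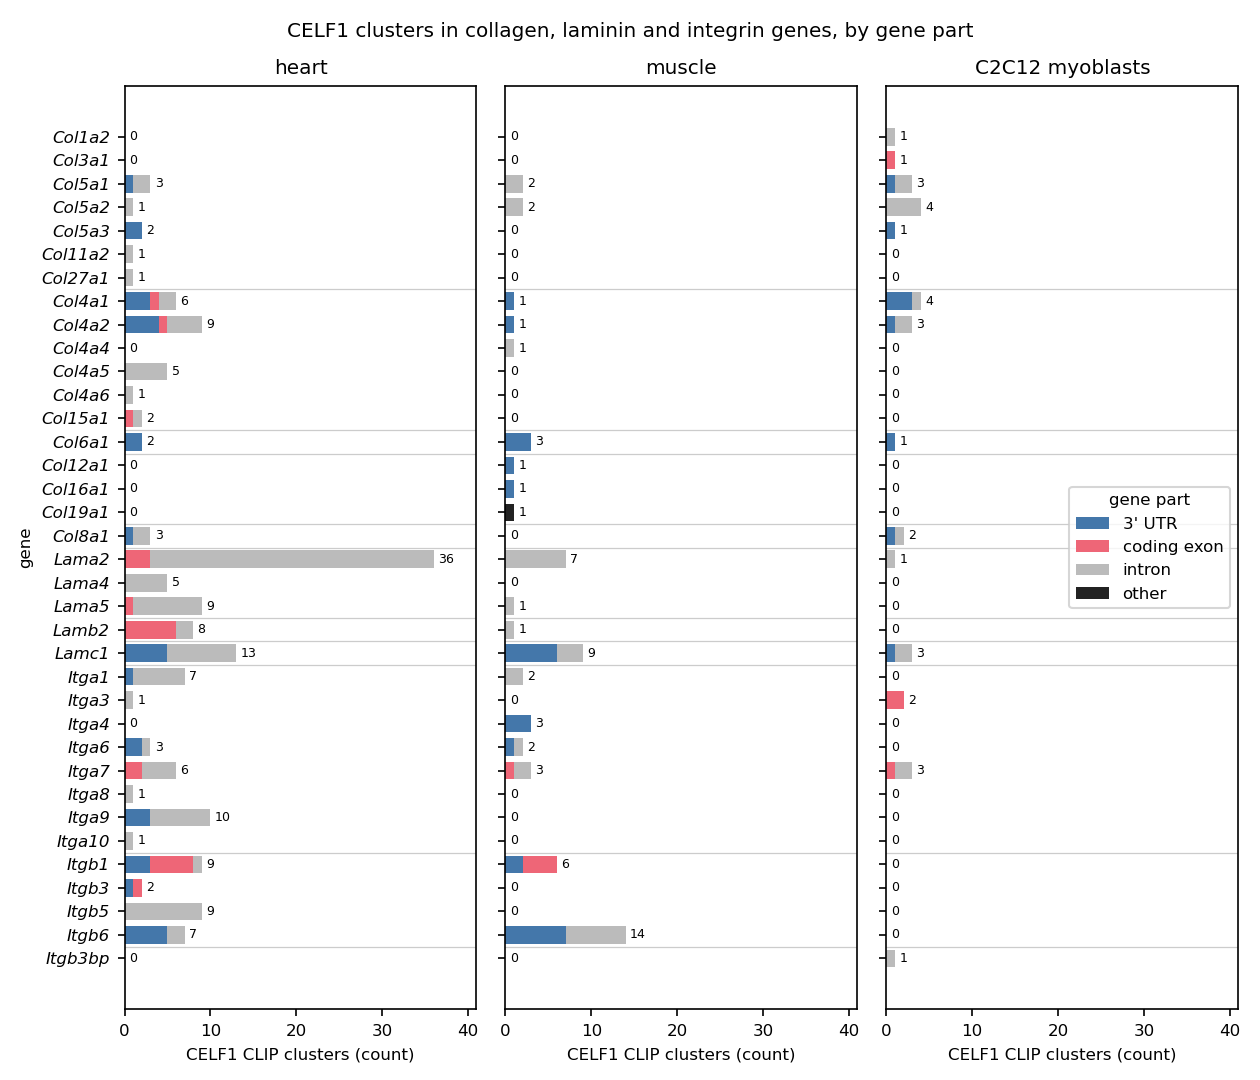
Number of CELF1 CLIP clusters in each of the 36 bound genes (rows, ordered by subfamily) in heart, muscle and C2C12 myoblasts, 1 library each, with bars divided by gene part. Lama2 reached 36 clusters in heart, almost all intronic, whereas Itgb6 led in muscle with 14 and no gene passed 4 in myoblasts.

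The 3 families differed in where their clusters were found. Collagen genes took 0.0852% of the heart library (0.0597 to 0.118%) and 0.0523% of the muscle library (0.0279 to 0.0895%), but 0.391% of the myoblast library (0.239 to 0.603%). The ratio was 0.218 for heart over myoblasts (0.123 to 0.397) and 0.134 for muscle over myoblasts (0.0612 to 0.283). Collagens made up 36 of the 163 clusters in heart and 13 of the 61 in muscle, against 20 of the 30 in myoblasts. Laminin genes had their highest share in heart, with 0.168% there (0.131 to 0.212%), 0.0725% in muscle (0.0429 to 0.114%) and 0.0782% in myoblasts (0.0213 to 0.2%), and a heart over muscle ratio of 2.32 (1.37 to 4.13). Without Lama2 that ratio was 1.87 and its interval included 1 (0.929 to 4.08). Integrin genes took similar shares, 0.133%, 0.121% and 0.0978% in heart, muscle and myoblasts, with a heart over muscle ratio of 1.1 (0.692 to 1.77). That near equality rested on Itgb6, without which the integrin ratio was 1.8 (1.01 to 3.39).

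**Figure D2:**
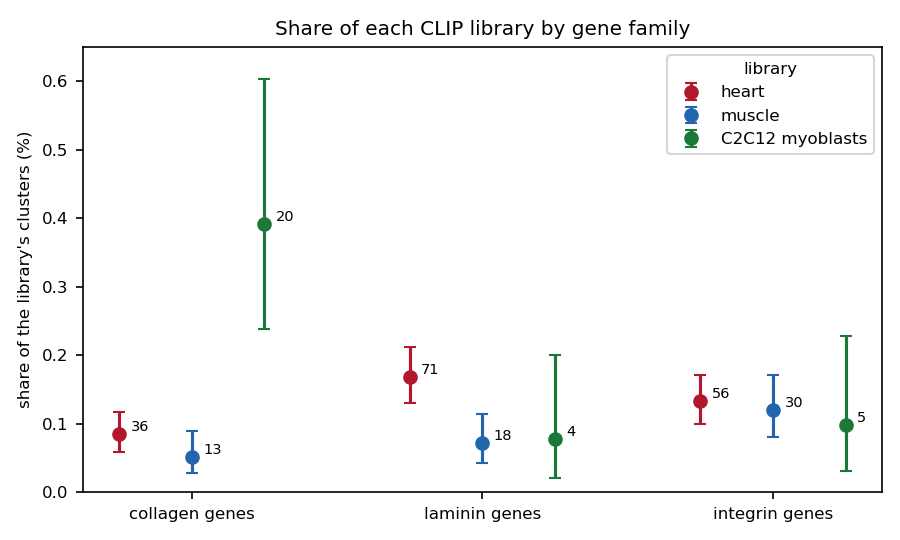
Share of each library's clusters (%, with exact 95% intervals) that lay in collagen, laminin and integrin genes, with the number of clusters beside each point. Collagens took 0.391% of the myoblast library, above both tissues, and laminins took 0.168% of the heart library, above muscle.

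Among the laminin alpha chains, Lama2 (Entrez Gene 16773), the alpha chain of the main muscle laminin whose loss causes a congenital muscular dystrophy, had the most clusters of any of these genes. It had 36 heart, 7 muscle and 1 myoblast clusters. As a share of the library, heart was 3.02-fold higher than muscle (1.33 to 8.05) and 4.36-fold higher than myoblasts, but the interval against myoblasts included 1 (0.734 to 177). In heart 33 of the 36 lay in introns and 3 in coding exons (exons 18, 19 and 55 of transcript Lama2-201), and all 7 muscle clusters and the myoblast cluster were intronic. The clusters were spread over the whole gene, which spans 635655 nt (chr10:26701094-27336748, minus strand). Per length Lama2 did not lead these genes, at 5.66 clusters per 100 kb in heart against 75 for Lamb2, the densest. The density over all genes was not computed.

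Of the 7 muscle clusters of Lama2, 3 overlapped a heart cluster, in introns 1, 4 and 12. The intron 1 site, 27511 nt downstream of the first exon, covered 60 nt in both tissues and held 15 UGU. The myoblast cluster, also in intron 12, overlapped neither. A few heart clusters lay close to exons, at 20 nt from the exon before intron 32, 22 nt from the exon before intron 10, and 38 and 64 nt from the exons after introns 44 and 53. For introns 44 and 53 the exon before the intron was absent from 1 and 2 of the 4 annotated coding transcripts. Lama2 had no 3′ UTR cluster in any library, and its annotated 3′ UTR measured 213 nt.

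The other laminin alpha chains were bound mainly in heart. Lama5, an alpha chain of vascular and epithelial basement membranes, had 9 clusters in heart (8 intronic and 1 in coding exon 16), 1 in muscle and 0 in myoblasts, and the heart over muscle ratio was 5.29 with a wide interval (0.733 to 232). Lama4, the alpha chain of blood vessel laminins, had 5 intronic clusters in heart and none in muscle or myoblasts, which gave no bound above 1 against a muscle count of 0. Its intron 4 cluster held 18 UGU in 61 nt, and a pair in intron 31 began 31 and 100 nt past an exon.

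Lamb2, the beta chain of laminins at the neuromuscular junction and in heart capillaries and kidney, was the most densely bound of the 36 genes for its length in the heart library, but not in the other libraries. It had 8 heart, 1 muscle and 0 myoblast clusters, a heart over muscle ratio of 4.7 (0.63 to 209). In its 10669 nt (chr9:108382193-108392861, plus strand) this came to 75 clusters per 100 kb in heart, against 24.5 for Itga7, the next densest. In heart 6 of the 8 had their midpoints in coding exons 3, 4, 10, 21, 22 and 23, 1 in each. Those of exons 3, 10 and 21 ran past the exon end into the intron. The other 2 lay together at intron 28, 292 nt long, and were 119 and 115 nt wide. The upstream one started at the end of exon 28, and the muscle cluster of 114 nt overlapped it. Heart clusters thus covered most of that intron, with 11 UGU in the upstream cluster, printed above, and 8 in the downstream one.

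Lamc1 (Entrez Gene 226519), the gamma chain common to most laminins, was the laminin with clusters in the 3′ UTR. It had 13 clusters in heart (5 in the 3′ UTR and 8 in introns), 9 in muscle (6 and 3) and 3 in myoblasts (1 and 2). The heart over muscle ratio was 0.849 (0.336 to 2.25) and the heart over myoblasts ratio 0.524 (0.144 to 2.87), both with intervals that included 1. Of the 6 muscle clusters in its 3′ UTR of 2554 nt, 4 overlapped a heart cluster, and 2 nearer the end of the transcript did not. The myoblast 3′ UTR cluster lay in that end as well, and met the last muscle cluster over 7 nt. In intron 1 a heart cluster of 97 nt overlapped a muscle cluster at one side and a myoblast cluster at the other.

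Type IV collagens form the network of the basement membrane, and Col4a1 and Col4a2 encode the pair of chains found in nearly all of them. The genes lie head to head on chromosome 8. Col4a1 had 6 heart, 1 muscle and 4 myoblast clusters, and Col4a2 had 9, 1 and 3. Relative to the library both were lower in muscle than in myoblasts, at ratios of 0.0515 for Col4a1 (0.00105 to 0.52) and 0.0686 for Col4a2 (0.00131 to 0.855), and Col4a1 was lower in heart than in myoblasts (0.182, 0.0431 to 0.875). Heart exceeded muscle by 3.53-fold for Col4a1 (0.428 to 162) and 5.29-fold for Col4a2 (0.733 to 232), intervals that included 1.

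Both genes had 3′ UTR clusters in every library. Col4a1 had 3 there in heart, 1 in muscle and 3 in myoblasts, and Col4a2 had 4, 1 and 1. The muscle cluster of Col4a1 lay within a site covered in all 3 libraries (chr8:11199579-11199627, 49 nt), whose printed sequence held only 1 UGU. Beside it, nearer the stop codon, a site of 94 nt with 6 UGU was covered in heart and myoblasts. In Col4a2 the myoblast cluster fell 55 nt into the 3′ UTR within a heart cluster, and the muscle cluster fell on another heart cluster 472 nt into it. Introns held 2 clusters in heart and 1 in myoblasts for Col4a1, and 4 and 2 for Col4a2, with none in muscle for either gene. They included one in heart 51 nt upstream of a Col4a1 exon at intron 10 with 12 UGU.

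The type IV chains of more restricted use had fewer clusters. Col4a5, on the X chromosome, had 5 intronic clusters in heart and none in muscle or myoblasts, Col4a6 had 1 in heart, and Col4a4 had 1 in muscle. Col15a1, a basement membrane zone collagen of muscle and vessels, had 2 clusters in heart only. In all, the basement membrane collagens had 23 heart, 3 muscle and 7 myoblast clusters.

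Fibrillar collagens, which form the interstitial fibres, had 8 heart, 4 muscle and 10 myoblast clusters. This was 0.0189% (0.00817 to 0.0373%), 0.0161% (0.00439 to 0.0412%) and 0.196% (0.0938 to 0.359%) of the libraries. Type V chains, which start fibril assembly, made up most of them. Col5a1 had 3, 2 and 3 clusters in the heart, muscle and myoblast libraries, and was lower in heart than in myoblasts at a ratio of 0.121 (0.0162 to 0.904). Col5a2 had 1, 2 and 4, at 0.0303 for heart over myoblasts (0.000614 to 0.306) and 0.103 for muscle over myoblasts (0.00931 to 0.718). All 7 Col5a2 clusters were intronic and none overlapped another library's, although a heart and a myoblast cluster in intron 1 came within 7 nt of each other. In its 3′ UTR Col5a1 had 1 cluster in heart and 1 in myoblasts, at separate places. Col5a3 had 2 in heart, 0 in muscle and 1 in myoblasts, all in the 3′ UTR, and its myoblast cluster overlapped one of heart.

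Col1a2 and Col3a1, chains of the most abundant fibrils, had 1 cluster each, in myoblasts only (an intron of Col1a2 and coding exon 51 of Col3a1), and Col1a1 had none in any library. Col6a1, a chain of the type VI microfibrils around muscle fibres, had 2 heart, 3 muscle and 1 myoblast clusters, all in a 3′ UTR of 770 nt. One of these sites was covered in all 3 libraries (chr10:76171740-76171771, 32 nt) and held 1 UGU. Its partners Col6a2 and Col6a3 had no cluster. Col8a1, a network collagen of vessel walls, had 3 in heart, 0 in muscle and 2 in myoblasts, with a heart and a myoblast cluster 5 nt apart in the 3′ UTR that both lay in a UGU repeat (8 and 10 UGU). Col12a1, Col16a1 and Col19a1, collagens associated with fibrils, had 1 cluster each in muscle only. The Col19a1 cluster lay outside the annotated gene, 5964 nt downstream of the nearest exon. With clusters inside genes alone, 18 of these genes were bound in muscle.

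Among the integrin alpha chains, Itga7 (Entrez Gene 16404), the laminin receptor of muscle fibres, was the one bound in all 3 libraries. It had 6 heart, 3 muscle and 3 myoblast clusters. The heart over muscle ratio was 1.18 (0.251 to 7.27) and the heart over myoblasts ratio was 0.242 (0.0517 to 1.5). A site in intron 1, 36 nt with 13 UGU, was covered in every library (chr10:128374720-128374755), and a site in coding exon 3 was covered in heart and myoblasts.

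Itga7 pre-mRNA is known to be spliced alternatively in the part that encodes its extracellular domain. In the annotation, exon 5 was absent from 2 and exon 6 from 1 of 5 coding transcripts. The intron between them, 245 nt, held 2 heart clusters, 1 starting 34 nt past exon 5 and 1 ending 6 nt before exon 6, and 1 muscle cluster within the first of these. No myoblast cluster lay there. Itga6, another laminin receptor, had a muscle cluster of 56 nt that reached the exon before intron 24. The exon absent from 1 of 4 transcripts was the one after that intron, at the other end of its 4027 nt. The site was thus not close to the alternative exon, unlike the Itga7 pair. Itga6 had 3 heart, 2 muscle and 0 myoblast clusters, and its 3′ UTR site was common to heart and muscle.

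**Figure D3:**
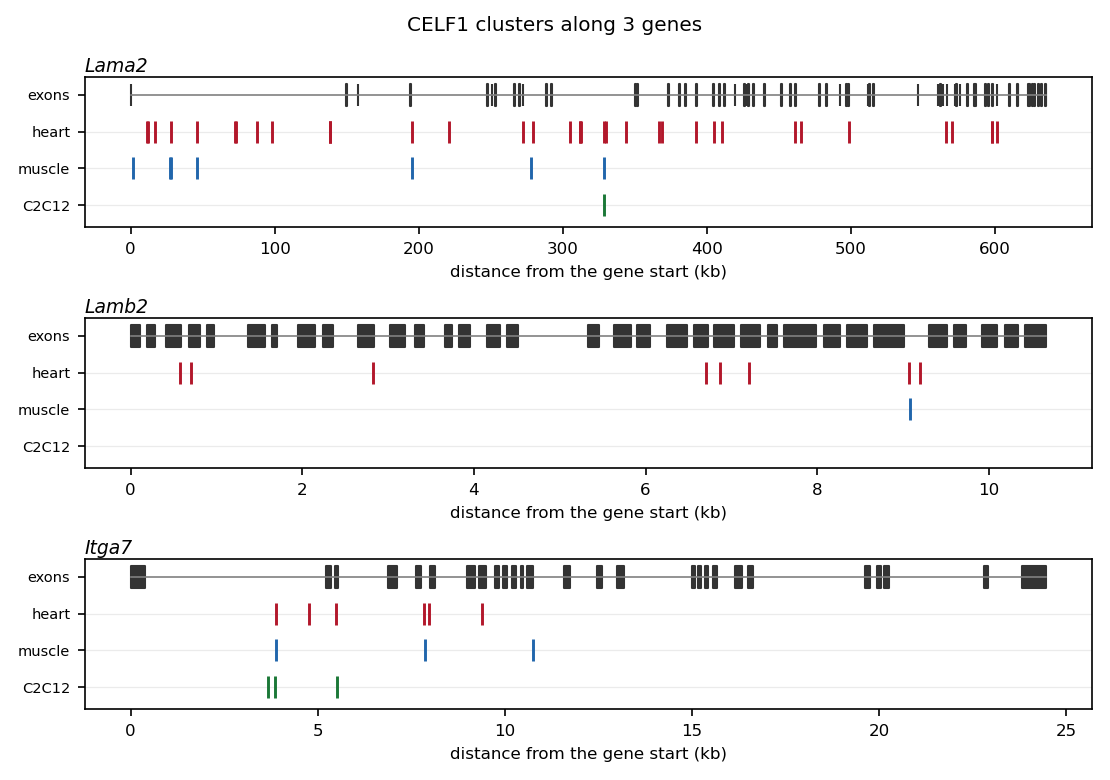
Position of CELF1 clusters (vertical ticks, heart above muscle above C2C12 myoblasts) along Lama2, Lamb2 and Itga7, as distance from the gene start in kb, with the exons of the transcript with most exons drawn at a minimum width. Clusters of Lama2 were spread over the gene. Lamb2 clusters of heart lay in exons, across exon ends or in intron 28, and Itga7 showed 1 site at intron 1 in all 3 libraries.

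Of the other alpha chains, Itga9 and Itga1 had most of their clusters in heart. Itga9, a receptor for tenascin and other matrix ligands, had 10 clusters in heart (3 in the 3′ UTR, 7 in introns) and none in muscle or myoblasts. With the muscle count of 0 set to a floor of 3 clusters, its heart over muscle ratio was 1.96. That ratio takes the heart count as exact and has no interval. One of its intronic clusters had the most UGU of all 254, 24 in 106 nt (chr9:118762032-118762137). Itga1, a collagen receptor, had 7 heart, 2 muscle and 0 myoblast clusters, a heart over muscle ratio of 2.06 (0.392 to 20.3), with 1 intronic site shared. Itga4, a receptor for fibronectin and VCAM1, had 3 clusters in muscle, all in the 3′ UTR, and none elsewhere. Itga3, a laminin receptor, had 1 intronic cluster in heart and 2 in coding exons in myoblasts, and Itga8 and Itga10 had 1 each in heart.

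Among the beta chains no cluster was found in myoblasts, 0 of 5115, which allows a share of up to 0.0721%. Itgb1 (Entrez Gene 16412), the beta chain that pairs with most matrix-binding alpha chains, had 9 clusters in heart and 6 in muscle, with a ratio of 0.882 (0.28 to 3.01). In heart 5 of the 9 and in muscle 4 of the 6 lay in coding exons. These fell on exons 2, 12 and 13 in both tissues, and each of the 4 muscle clusters overlapped one of heart. The exon 12 site, printed above, held 7 UGU. In the 3′ UTR 2 of the 3 heart clusters overlapped a muscle cluster.

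Itgb6, a partner of integrin alpha v known from epithelial cells, was the gene with most clusters in muscle. It had 7 heart, 14 muscle and 0 myoblast clusters. The heart over muscle ratio was 0.294 (0.1 to 0.778), the only beta chain whose interval excluded 1. In the 3′ UTR, 5 heart clusters each overlapped one of 7 in muscle, and most gathered in its last part, with the printed site holding 5 UGU in 30 nt. In introns, 2 heart and 7 muscle clusters were found, and 5 of the muscle clusters lay in intron 13. No other gene was annotated on that strand over any of these clusters.

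Itgb5, another partner of alpha v, had 9 clusters in heart and none in muscle or myoblasts. Its heart over muscle ratio against the floor of 3 was 1.76, again without an interval. All 9 were intronic, from intron 2 to intron 8, with 4 in intron 8, and they held 5 to 16 UGU each. Itgb3, the beta chain of platelets and vessels, had 2 clusters in heart only. Itgb3bp had 1 intronic cluster in myoblasts.

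**Figure D4:**
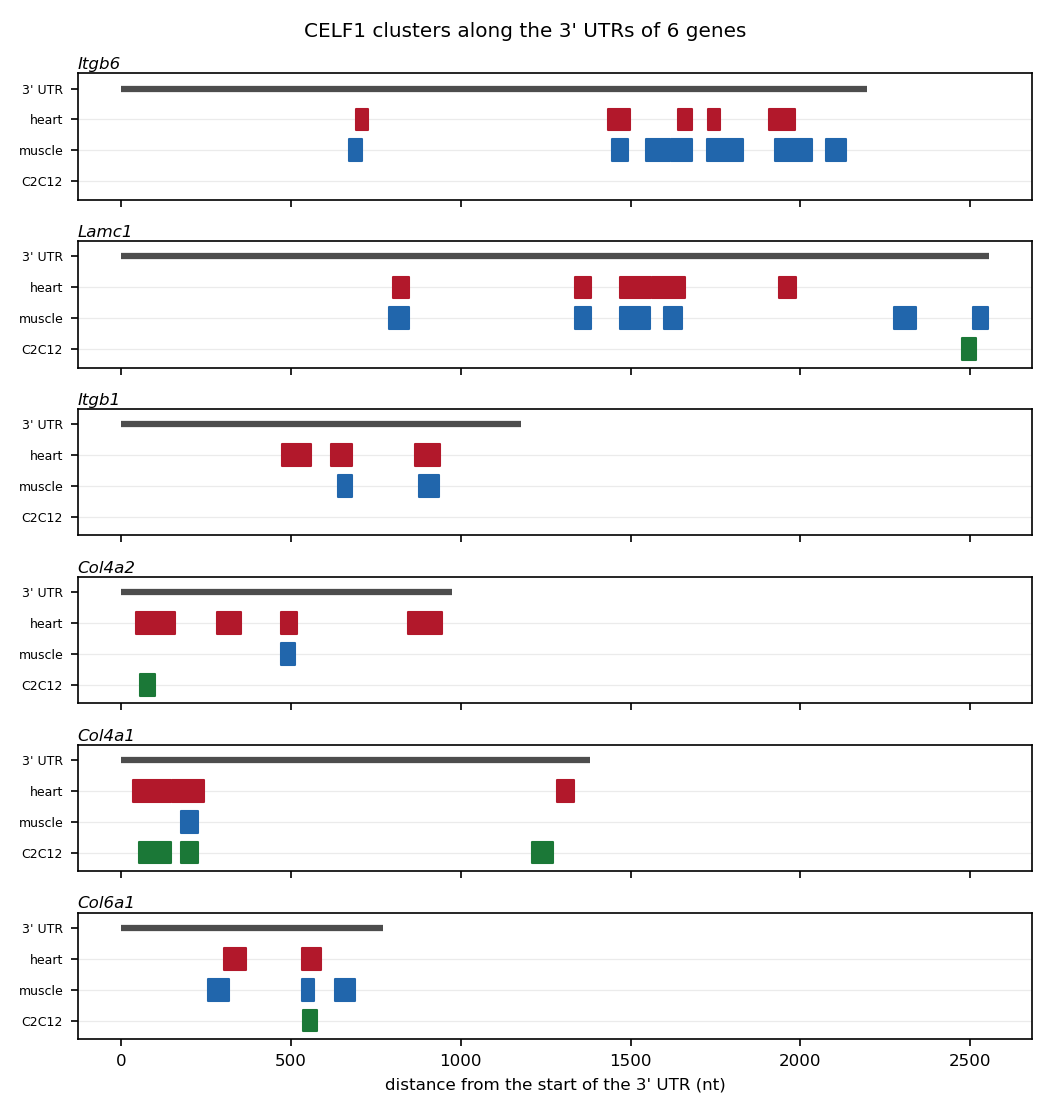
Position of CELF1 clusters along the 3′ UTRs of Itgb6, Lamc1, Itgb1, Col4a2, Col4a1 and Col6a1, as distance in nt from the start of the longest annotated 3′ UTR stretch (grey line), for heart, muscle and C2C12 myoblasts from top to bottom. Heart and muscle clusters coincide at 5 sites of Itgb6 and 4 of Lamc1, and the 3 libraries coincide at 1 site each of Col4a1 and Col6a1.

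By gene part, the heart clusters of these genes lay less often in 3′ UTRs and more often in coding exons than those of the library as a whole. In heart 33 of 163 clusters (20.2%, 14.4 to 27.2%) lay in 3′ UTRs, against 33% of all heart clusters, and 21 (12.9%, 8.16 to 19%) in coding exons, against 5.71%. Lamb2, Itgb1 and Lama2 held 6, 5 and 3 of the 21 coding clusters. Introns held 109 (66.9%, 59.1 to 74%), against 58.6%. In muscle the 3′ UTR share was 42.6% (26 of 61, 30 to 55.9%), against 50.1%, and the coding share was 8.2% (5 of 61, 2.72 to 18.1%), against 4.54%. In myoblasts the shares were 30% (9 of 30, 14.7 to 49.4%), against 33.9%, and 13.3% (4 of 30, 3.76 to 30.7%), against 3.75%. The intervals of the 3′ UTR and coding shares excluded the library's value in heart and did not in muscle, and in myoblasts the coding interval only just excluded it. The lower 3′ UTR share of heart rested on Lama2, without which it was 26% (18.6 to 34.5%), an interval that contained the library's 33%. The coding share of heart was then 14.2% (8.62 to 21.5%), against 5.71%, but Lama2 held only 3 of the 21 coding clusters. The coding share without Lamb2 and Itgb1, which held more of them, was not computed, so it may rest on these genes. The myoblast values rested on narrow clusters. With clusters of 40 nt or wider alone, the 3′ UTR share of myoblasts was 66.7% (8 of 12, 34.9 to 90.1%). Under the same limit the library had 47.7%. In that setting 0 of 12 clusters were coding (0 to 26.5%), against 2.97%, and both intervals contained the library's value. No cluster of these genes lay in a 5′ UTR.

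**Figure D5:**
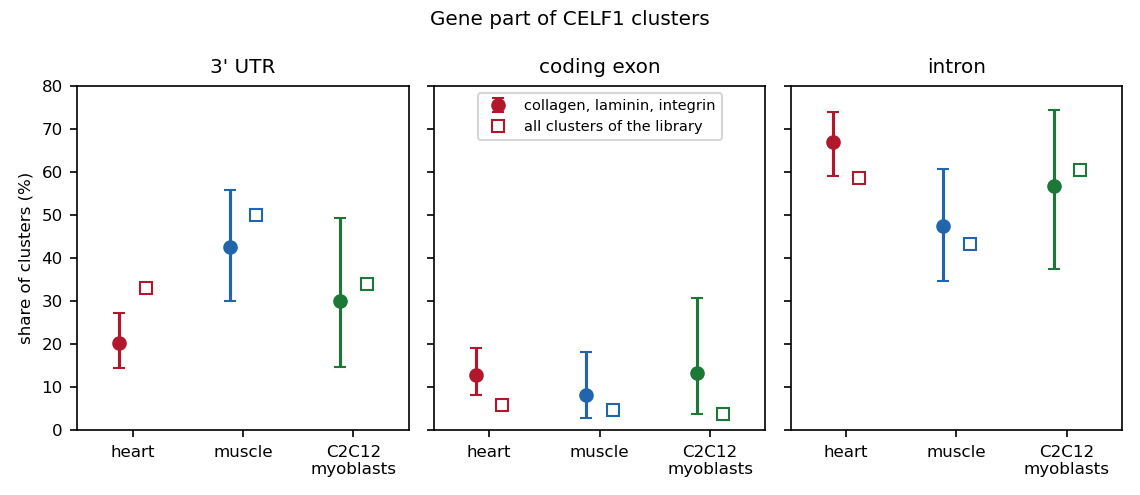
Share of clusters (%) in 3′ UTRs, coding exons and introns for the collagen, laminin and integrin genes (filled circles, exact 95% intervals) and for all clusters of the same library (open squares). In heart the 3′ UTR share was 20.2%, below the 33% of the library, and the coding share was 12.9%, above 5.71%.

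Counted as genes, 13 of the 36 (36.1%, 20.8 to 53.8%) had a 3′ UTR cluster in heart, against 51.6% of all genes with a cluster in any library. In muscle 10 (27.8%, 14.2 to 45.2%) had one, against 45%, and in myoblasts 7 (19.4%, 8.19 to 36%), against 14.2%. The 7 in myoblasts were Col4a1, Col4a2, Col5a1, Col5a3, Col6a1, Col8a1 and Lamc1, so that all but Lamc1 were collagens. Lama2, Lama4, Lama5 and Lamb2 had none in any library and had annotated 3′ UTRs of 113 to 213 nt. All 3 intervals contained the background share.

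Per gene, a change was called where the share of library clusters differed by 2-fold or more, a rule of size with no test. For heart over muscle, 6 of 33 genes with a cluster in either (18.2%, 6.98 to 35.5%) were higher, against 8.89% of all genes, namely Lama2, Lama5, Lamb2, Col4a1, Col4a2 and Itga1. All of these but Itga1 encode basement membrane chains, but Lamc1, another such chain, was not called (0.849). The list also depended on the floor. Itga9 and Itgb5, without a muscle cluster, had ratios of 1.96 and 1.76 against the floor of 3 and so were not called. With a floor of 1 cluster, 10 genes were higher, adding Itga9, Itgb5, Lama4 and Col4a5. Lower in heart were 3 of 33 (9.09%, 1.92 to 24.3%), against 12.3%, which were Itgb6, Col6a1 and Col5a2. Only for Lama2 and Itgb6 did the interval of the ratio exclude 1.

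For heart over myoblasts, Lama2 was the only 1 of 31 higher (3.23%, 0.0816 to 16.7%), against 2.06% of all genes, and 12 of 31 were lower (38.7%, 21.8 to 57.8%), against 24.2%. The 12 comprised 9 collagens (Col1a2, Col3a1, Col4a1, Col4a2, Col5a1, Col5a2, Col5a3, Col6a1 and Col8a1), Itga3, Itga7 and Itgb3bp. For muscle over myoblasts 0 of 25 were higher (0 to 13.7%), against 2.73%, and 7 of 25 were lower (28%, 12.1 to 49.4%), against 18.4%. These 7 were Col4a1, Col4a2, Col5a1, Col5a2, Col8a1, Itga3 and Itga7. Of the 12 and the 7 lower genes, 8 and 5 had 3 or fewer clusters in both libraries, and all the intervals given contained the background share. The comparisons with myoblasts share that library. It holds so few clusters that 1 cluster in it outweighed 1 cluster in a tissue by more than 2-fold. With clusters of 40 nt or wider alone, 12 of the 30 myoblast clusters were left, no gene was higher in heart than in myoblasts and 7 were lower.

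Of the 36 genes, 8 had clusters in all 3 libraries (22.2%, against 22.7% of all genes with a cluster), namely Col4a1, Col4a2, Col5a1, Col5a2, Col6a1, Lama2, Lamc1 and Itga7. Heart alone had 11 genes (30.6%, against 23.4%), among them Itga9, Itgb5, Lama4 and Col4a5, and heart with muscle had 6 (16.7%, against 34.2%). Muscle alone had 5 (13.9%, against 8.05%), myoblasts alone 3 (8.33%, against 5.13%), and heart with myoblasts 3 (8.33%, against 4.98%), which were Col5a3, Col8a1 and Itga3.

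Heart sites of these genes recurred in muscle less often than heart sites in general. Of the 163 heart clusters, 30 (18.4%, 12.8 to 25.2%) overlapped a muscle cluster by 1 nt or more on the same strand, against 30.9% of all heart clusters. The deficit lay in introns, where 10 of 109 (9.17%, 4.49 to 16.2%) overlapped, against 19%, whereas in 3′ UTRs 16 of 33 (48.5%, 30.8 to 66.5%) did, against 53.8%. From the side of muscle, 30 of 61 (49.2%, 36.1 to 62.3%) overlapped a heart cluster, against 52.8%. Of the 30 myoblast clusters, 8 (26.7%, 12.3 to 45.9%) overlapped heart and 4 (13.3%, 3.76 to 30.7%) muscle, against 33.9% and 25%. In all there were 36 shared stretches, 20 in 3′ UTRs, 11 in introns and 5 in coding exons, and 3 of them (Col4a1, Col6a1 and Itga7) were found in every library.

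UGU was searched on the transcript strand, with overlapping matches counted. It was present in 161 of 163 clusters in heart (98.8%), 61 of 61 in muscle and 28 of 30 in myoblasts (93.3%), against 98.3%, 98.4% and 86.4% of all clusters in the same libraries. The clusters without it lay in a Col4a1 coding exon and in Lama2 intron 12 in heart, and in introns of Col4a2 and Col5a2 in myoblasts. The density was 9.38 UGU per 100 nt in heart, 8.64 in muscle and 8.26 in myoblasts, against 8.79, 7.86 and 8.09 over all clusters. Intronic sites were the densest, at 11.7 per 100 nt in heart against 5.27 in 3′ UTRs, and the same order held over all heart clusters, at 11.5 and 5.59.

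Intronic clusters lay a median of 2965 nt from the nearest exon in heart, 1486 nt in muscle and 1998 nt in myoblasts, against 3637, 2704 and 2460 nt over all intronic clusters. Within 300 nt of an exon were 21 of 109 in heart (19.3%, 12.3 to 27.9%, against 13.3%), 7 of 29 in muscle (24.1%, 10.3 to 43.5%, against 15.8%) and 2 of 17 in myoblasts (11.8%, 1.46 to 36.4%, against 16.9%), intervals that contained the value of the library. Of the 3′ UTR clusters, 10 of 33 in heart, 13 of 26 in muscle and 3 of 9 in myoblasts lay within 500 nt of an annotated transcript end (30.3%, 50% and 33.3%, against 33.1%, 35.4% and 41.8%).

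Lists of genes that act with the matrix and its receptors were counted in the same libraries. Of 17 integrin adaptors and signalling genes, 14 had a cluster in heart, 10 in muscle and 10 in myoblasts, with 148, 70 and 32 clusters. Of all protein-coding genes named in RefSeq, 31.3% had a cluster in heart, 24.3% in muscle and 12.5% in myoblasts. Some shares of the lists below were close to these values, and no interval was computed for any list. Vcl, which ties integrins to actin, had 17, 17 and 4, Ptk2, the focal adhesion kinase, had 18, 11 and 5, and Parva had 14, 0 and 1. Of 12 basement membrane and linker genes, 7, 3 and 6 were bound. Dag1, the laminin receptor dystroglycan, had 18 heart, 8 muscle and 0 myoblast clusters, and Nid1, which joins laminin to type IV collagen, had 4, 7 and 5. Of 12 genes of collagen synthesis 9, 7 and 5 were bound, such as P4hb, a subunit of prolyl 4-hydroxylase, with 4, 3 and 4. Of 8 turnover genes 4, 2 and 1 were bound, where Timp3, an inhibitor of matrix proteases, had 10, 11 and 0 and its relative Timp2 had 7, 9 and 2, while no matrix metalloproteinase of the list (Mmp2, Mmp9 and Mmp14) had any.

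The remaining 43 genes of the families had no cluster in any library. They were 26 collagens, among them Col1a1, Col6a2, Col6a3, Col14a1 and Col18a1, 9 integrin chains, 6 laminin chains and the integrin-binding proteins Itgb1bp1 and Itgb1bp2. The share of these families with a cluster, 45.6%, compares with 36.6% of the 21900 protein-coding genes named in RefSeq. No interval was computed for it, so a difference from that background is not shown. A gene with little RNA in a sample gives few fragments to crosslink, so the absence of a cluster does not show that a transcript is not bound.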

How the data were processed

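CELF1 CLIP-seq was analysed from 3 libraries, heart, muscle and C2C12 myoblasts, 1 per group. Before deposit, the authors merged reads of equal sequence (a random barcode marked PCR copies), trimmed adapters and mapped reads to mm9 with Bowtie/TopHat (versions not given in the sources used here), keeping unique matches. Clusters were called in each library separately, where 30-nt windows in genes exceeded a Poisson model with terms for expression and for the length of the pre-mRNA. Read depth cannot be had from the deposited files. They give cluster positions, a gene identifier and a score column that is 1e-06 throughout. The meaning of that score was not stated, and neither reads nor heights were analysed. For uniquely mapped reads after merging, the paper reports equal numbers in heart and myoblasts and fewer in muscle. Cluster numbers did not follow these read numbers, and the reason was not tested. Cluster width ran between 35 and 126 nt.

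Gene identifiers were given symbols from RefSeq (GRCm38.p6, names only; 8030 of 8037 matched) and parts from GENCODE vM1 on mm9 (7981 of 8037 matched, 99.3%, and all 36 members). The part of a cluster was that of its midpoint in protein-coding transcripts, in the order 3′ UTR, coding exon, 5′ UTR, intron. Ratios are shares of library clusters with exact conditional intervals, shares have exact Clopper-Pearson intervals (95%), and a library at 0 was set to a floor of 3 clusters. No test across samples was possible with 1 library per group, and no p-value is given. The members and gene lists were chosen with earlier results of these data known. All values per library are given for members with 5 or more clusters in a library, those in all 3 libraries and those with a 3′ UTR cluster in myoblasts. Alternatives were a width of 40 nt, merging within 50 nt, leaving out the leading member, other part rules, 3-fold, a floor of 1, other overlap rules and widened clusters. For the coding share, the width limit and leaving out the leading member were added after seeing the data. The computations were checked on simulated data. Python 3.11.15, pandas 2.3.3, numpy 2.4.6, scipy 1.17.1, pysam 0.24.0, samtools 1.23.1 and matplotlib 3.10.9 were used.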

Additional observations from a re-analysis of the deposited data

How the results depend on the processing

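Of 150 recomputed values, 139 stayed within the main interval or within 1.5 times the main count. With clusters of 40 nt or wider, 8 genes were bound in myoblasts, and 0 genes were higher and 7 lower in heart over myoblasts, since 18 of 30 myoblast clusters are narrower. The 3′ UTR share of myoblasts was then 66.7% (8 of 12, 34.9 to 90.1%), against 47.7% of the library. The intervals of this and of the main setting contained the library's value, so neither showed a difference from it. The coding share of myoblasts was 0% (an alternative chosen after seeing the data). Without the leading gene, Lama2, the heart share was 0.3%, the 3′ UTR share of heart was 26% with an interval that contained the library's 33%, and no gene was higher in heart over myoblasts (0). With a floor of 1 cluster, 10 genes were higher in heart over muscle, and 1 was higher and 11 lower in muscle over myoblasts. With clusters widened by 10 nt, 100% of heart clusters held UGU. No paired analysis was possible because each group has 1 library. Myoblast counts of 4 clusters or fewer per gene limit the ratios of single genes to that library, and calls depend on expression through the authors' model, which was not tested.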
